A study of Homo sapiens with 6 samples.

Results

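TXNIP, the arrestin domain genes ARRDC1 to ARRDC4, the transcription factor genes MLXIP and MLX and the thioredoxin gene TXN were examined after VNLG-152R treatment of MDA-MB-231, a human cell line long used as a model of triple-negative breast cancer. These 8 genes are a hand-made group of glucose-responsive alpha-arrestins, their transcription factors and the protein that TXNIP binds. They were chosen by name with the log2 fold changes of this same comparison already known, so their values are given here as a description. All 8 were found among the 61552 gene identifiers of the count tables, and all 8 passed the filter on low counts, as did 17084 genes in all. One group was exposed to VNLG-152R at 10 μM and the control group to its DMSO vehicle alone, each during 24 h, with 3 samples per group. A single cell line, dose and time were sampled, and neither the labels nor the methods state that the 3 samples of a group were independent cultures. Any p-value here thus reflects sample-to-sample spread that could be technical.

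Alpha-arrestins are adaptor proteins that bind membrane receptors and transporters and recruit ubiquitin ligases of the NEDD4 family, which send the bound protein to endosomes and lysosomes. TXNIP is the member that also binds thioredoxin and blocks its reducing activity, and TXNIP and ARRDC4 both restrain glucose uptake. MondoA, the product of MLXIP, enters the nucleus with its partner MLX when glucose 6-phosphate accumulates, and the pair activates TXNIP and ARRDC4 through carbohydrate response elements, which are pairs of E-box-like sites in their promoters.

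The promoters of TXNIP and ARRDC4 are shown because RNA of these genes was lower in treated cells and because both are known targets of MondoA-MLX. The sequences come from RefSeq (GRCh38.p14) and hold the bases upstream of both the RefSeq and the GENCODE transcription start. That of TXNIP covers chr1:145996601-145996829 on the minus strand (229 bases), and that of ARRDC4 covers chr15:97960453-97960697 on the plus strand (245 bases). Capitals mark matches, on either strand, to the motifs named in the next paragraph.
TXNIP: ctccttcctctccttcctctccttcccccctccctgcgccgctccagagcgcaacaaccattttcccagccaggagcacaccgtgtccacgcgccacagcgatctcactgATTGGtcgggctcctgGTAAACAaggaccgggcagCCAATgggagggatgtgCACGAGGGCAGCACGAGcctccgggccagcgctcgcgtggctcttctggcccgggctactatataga
ARRDC4: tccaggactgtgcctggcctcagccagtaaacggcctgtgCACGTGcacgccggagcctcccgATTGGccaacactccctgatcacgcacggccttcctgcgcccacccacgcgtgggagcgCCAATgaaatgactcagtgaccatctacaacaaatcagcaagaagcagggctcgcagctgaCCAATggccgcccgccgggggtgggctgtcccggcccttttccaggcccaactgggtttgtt

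Motifs were searched on both strands of a window of 300 bases around each RefSeq start, most of it upstream, in all 35116 such windows. They were chosen with these sequences in view. The TXNIP window held 1 pair of E-box-like sites in the same orientation, CACGNG and again CACGNG after 5 bases, from -88 to -72, and 0.057% of all windows (20) held this pattern. The ARRDC4 window held no exact match to this pair but did hold a perfect E-box, CACGTG, from -210 to -205, as did 7.26% of all windows. MLX had a CACGTG from -50 to -45. The facing arrangement, CANGNG and then CNCNTG after 5 bases, found in 0.564% of windows, matched in none of the 8 main windows. Pairs with other letters or other spacing were not searched, so a window without a match may still hold such a pair. CCAAT boxes, the letters bound by NF-Y, occurred in 6 of the 8 and in 34.6% of all windows, with 3 in ARRDC4 and 2 in TXNIP. The forkhead (FOXO) motif GTAAACA lay from -124 to -118 of TXNIP and in 3.42% of all windows. The main windows of ARRDC2 and TXN held none of these motifs. No searched motif overlapped another in these windows. A match records letters only, and binding was not measured.

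**Figure D1:**
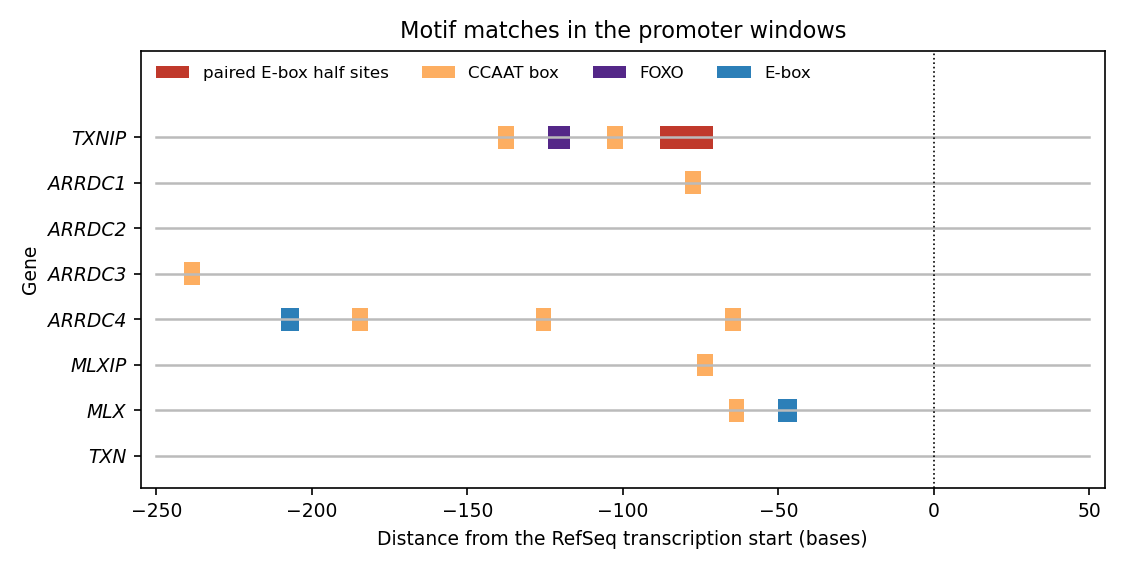
Matches to the searched motifs (colored boxes) in the promoter window of each of the 8 genes, against distance in bases from the RefSeq start. The red box of TXNIP, from -88 to -72, is the only match to the searched patterns of paired E-box-like sites among the 8 windows. ARRDC4 has 1 E-box and 3 CCAAT boxes.

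RNA of TXNIP was at about 1/2 of its control level after VNLG-152R. TXNIP lies on chromosome 1 from 145992435 to 145996600 (GRCh38, GENCODE release 29) and no other annotated gene shares its exons. It had 107, 114 and 122 CPM (counts scaled to a common library size, with TMM normalization) in the VNLG-152R libraries, against 220, 253 and 219 CPM in the vehicle controls. The groups did not overlap, and the highest treated library was well under the lowest control library. The means were 115 ± 7.59 CPM in treated and 231 ± 19.4 CPM in control samples (SD, n = 3 each). The log2 fold change was -1.01 (standard error 0.09), a fold of 0.496 with a 95% interval of 0.433 to 0.569. Over the 9 possible pairs of a treated and a control library, the log2 difference ran from -1.24 to -0.84. Of the 17084 tested genes, 87 had a lower log2 fold change. Among the 2338 genes that averaged 100 CPM or more, a limit chosen after the values were seen, only TXNIP itself had a log2 fold change as low as this.

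ARRDC4, the alpha-arrestin closest to TXNIP in its response to glucose, was lower in treated cells by nearly the same factor, at a far lower level. The gene spans 97960698 to 97973838 of chromosome 15, and no other annotated gene overlaps its exons. Counts were 128, 141 and 174 in the VNLG-152R libraries and 258, 219 and 233 in the vehicle controls, although every treated library was deeper. As CPM these were 1.89, 1.84 and 2.10 in treated samples, against 4.24, 3.64 and 3.42 in controls, without overlap. The log2 fold change was -0.95 (standard error 0.15), a fold of 0.518 with a 95% interval of 0.415 to 0.646. The ratio of TXNIP to ARRDC4 RNA per exon length (RPKM, CPM per kilobase of exon) was 66.1 ± 2.99 with VNLG-152R and 69.5 ± 10.2 in controls (SD, n = 3 each), and the libraries of the groups overlapped. Within the VNLG-152R group, replicate 3 was the highest for both genes, 0.10 above the group mean for TXNIP and 0.11 for ARRDC4 on the log2 scale. The controls differed in which library was highest. Control replicate 2 held the highest TXNIP level, 0.14 above the control mean on the log2 scale, and its ARRDC4 level was 0.04 below that mean. Control replicate 1 held the highest ARRDC4 level, 0.18 above the mean, and its TXNIP level was 0.06 below it.

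The other alpha-arrestin genes stayed within their spread. ARRDC1, whose product drives budding of vesicles from the plasma membrane, had 35.6, 31.2 and 28.5 CPM in treated and 29.2, 28.5 and 31.6 CPM in control libraries. ARRDC2 had 59.8, 50.6 and 53.2 CPM with VNLG-152R and 44.1, 54.3 and 54.8 CPM in controls, of which replicate 1 was the lowest of all 6. ARRDC3, an adaptor that brings the beta2-adrenergic receptor and integrin beta4 to degradation, had 29.4, 34.0 and 34.6 CPM in treated and 29.3, 31.2 and 29.1 CPM in control samples. In all of these the groups overlapped. Their log2 fold changes were 0.09, 0.09 and 0.13, with standard errors of 0.10, 0.10 and 0.09. The 95% intervals of the fold were 0.924 to 1.23 for ARRDC1, 0.914 to 1.25 for ARRDC2 and 0.958 to 1.25 for ARRDC3, so a change as large as that of TXNIP or ARRDC4 lies outside each. Without control replicate 1 the ARRDC2 value was -0.00065, and no direction can be given for it. Of the ARRDC2 exons, 9.53% lie under the antisense gene AC020904.3, which had 1 to 6 counts per library. The antisense genes ARRDC1-AS1 and ARRDC3-AS1 cover 0.759% and 2.94% of the exons of their partners. On the same strand as ARRDC1, AL590627.2 covers 4.79% of its exons and had 0 counts in every library. ARRDC1-AS1 had 13.0 CPM in treated and 12.5 CPM in control samples (log2 fold change 0.05, edgeR adjusted p = 0.788). ARRDC3-AS1 had 0.171 CPM in treated and 0.221 CPM in control samples (edgeR adjusted p = 0.644).

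**Figure D2:**
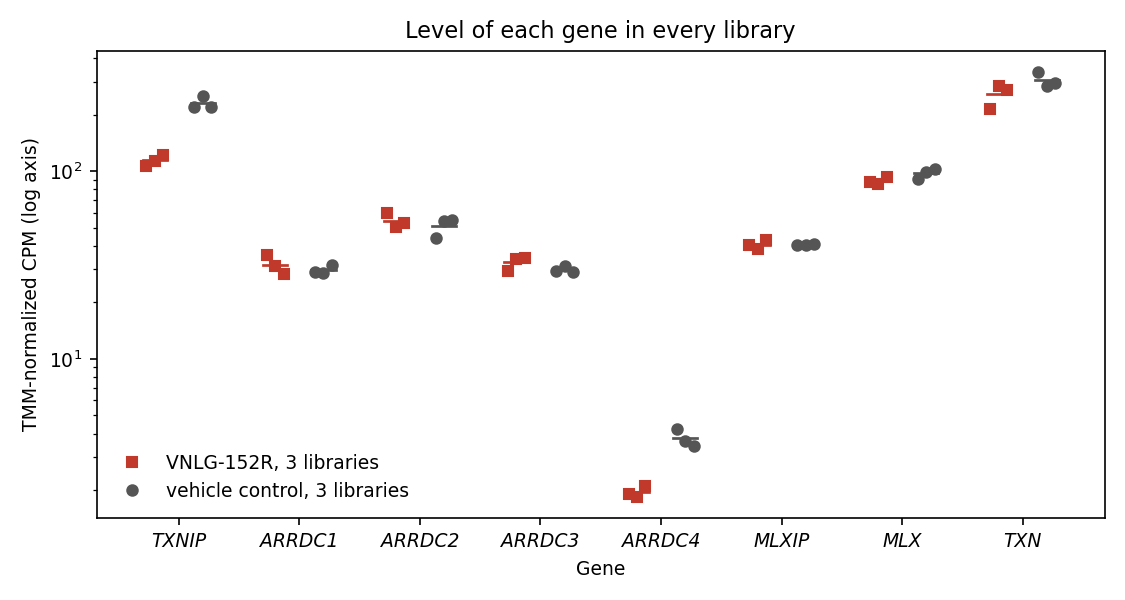
TMM-normalized CPM (log axis) of the 8 genes in every library, with VNLG-152R (red squares) left of vehicle control (grey circles) and lines at the group means. TXNIP, at 107 to 122 against 219 to 253 CPM, and ARRDC4, at 1.84 to 2.10 against 3.42 to 4.24 CPM, stand apart between the groups.

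MLXIP and MLX, the transcription factor genes among the 8, were not called changed. MLXIP had 40.7, 38.3 and 42.8 CPM in VNLG-152R libraries and 40.6, 40.7 and 40.9 CPM in vehicle controls. The controls lay inside the range of the treated samples. The log2 fold change was -0.0043 (standard error 0.08), and its 95% interval on the fold was 0.883 to 1.13. MLXIP has the longest exons of the 8 genes, and after a correction for transcript length its log2 fold change was -0.16 (standard error 0.08), also not called. MLX, the obligate partner, had 87.2, 85.2 and 93.1 CPM in treated libraries against 91.0, 99.4 and 103 CPM in controls, and the groups overlapped. Its log2 fold change was -0.14 (standard error 0.08) and its 95% interval on the fold was 0.798 to 1.03. The antisense gene PSMC3IP covers 18.1% of the MLX exons and fell itself, to 36.3 CPM in treated against 46.8 CPM in control samples (log2 fold change -0.36, edgeR adjusted p = 0.0239). The strand setting of the counting is not given in the sources used here, and the part of PSMC3IP reads in the MLX value was not tested.

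TXN, the thioredoxin that TXNIP binds, was the most abundant of the 8 genes. It had 216, 284 and 273 CPM with VNLG-152R and 339, 284 and 294 CPM in controls. The groups did not overlap, but only narrowly, since treated replicate 2 (283.6 CPM) and control replicate 2 (283.95 CPM) were nearly equal. Treated replicate 1 stood lowest. The log2 fold change was -0.25 (standard error 0.11), and its 95% interval on the fold, 0.712 to 0.996, lay just under no change. With a single library omitted, the log2 fold change ran from -0.32 (without treated replicate 2) to -0.13 (without treated replicate 1). TXN was not called changed (edgeR adjusted p = 0.211).

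A gene is called changed at a Benjamini-Hochberg adjusted p under 0.05 over all tested genes. Of the 8 genes, 2 were called, TXNIP and ARRDC4, both lower. Over all tested genes 5.19% were called, 3.76% higher and 1.43% lower. In 3 of the 8 genes, all lower in treated cells, no treated library lay within the control range or the reverse, against 28.5% of all tested genes. Nothing is read from these counts, because the 8 genes were chosen with this comparison known. The median log2 fold change was -0.07 over the 8 and -0.0024 over all tested genes.

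**Figure D3:**
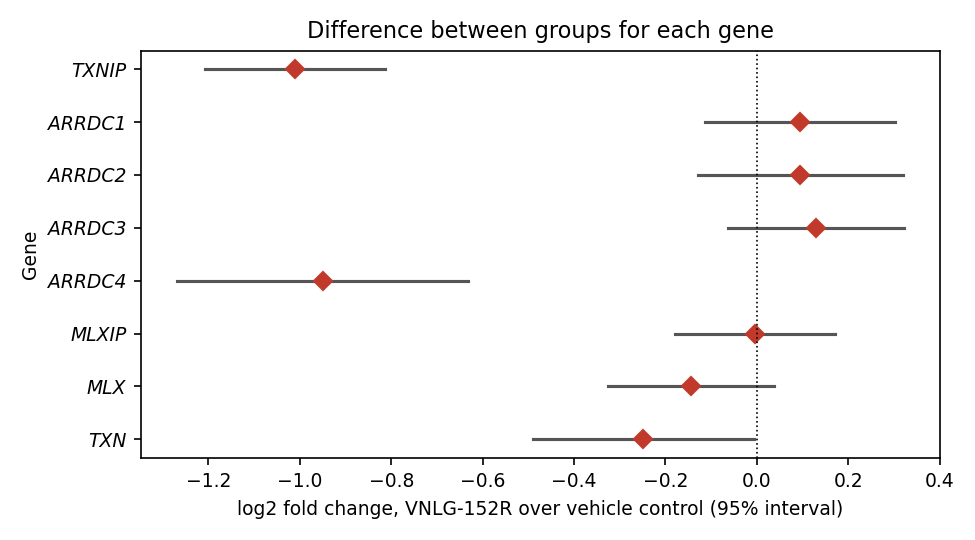
Log2 fold change of VNLG-152R over vehicle control for each of the 8 genes (diamonds) with the 95% interval of the edgeR fit (lines). The intervals of TXNIP (-1.21 to -0.81) and ARRDC4 (-1.27 to -0.63) do not meet those of the other 6 genes.

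Levels were set against each other per exon length. The order was the same in all 6 libraries, with TXN highest, then TXNIP, MLX, ARRDC2, ARRDC1, ARRDC3, MLXIP and ARRDC4. No neighbors in this order overlapped over the 6 libraries. TXN had 225 ± 32.0 RPKM in treated and 268 ± 25.4 RPKM in control samples (SD, n = 3 each), while ARRDC4 had 0.478 ± 0.0338 and 0.925 ± 0.104. These values use the combined exon length of each gene, 1142 bases for TXN and 13905 for MLXIP, and not the length of the transcripts used. TXNIP made up 50.8%, 54.3% and 56.0% of the summed alpha-arrestin RPKM in the treated libraries, against 71.6%, 72.6% and 69.2% in the controls. The sum of the 5 genes was 58.8 ± 1.26 RPKM with VNLG-152R and 89.4 ± 5.99 RPKM in controls (SD, n = 3 each). The other 4 alpha-arrestins together had 26.4 to 28.6 RPKM in treated and 24.1 to 26.8 RPKM in control libraries, which overlap. The ratio of TXN to TXNIP was 6.38, 7.90 and 7.07 in treated libraries and 4.88, 3.56 and 4.26 in controls, without overlap.

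**Figure D4:**
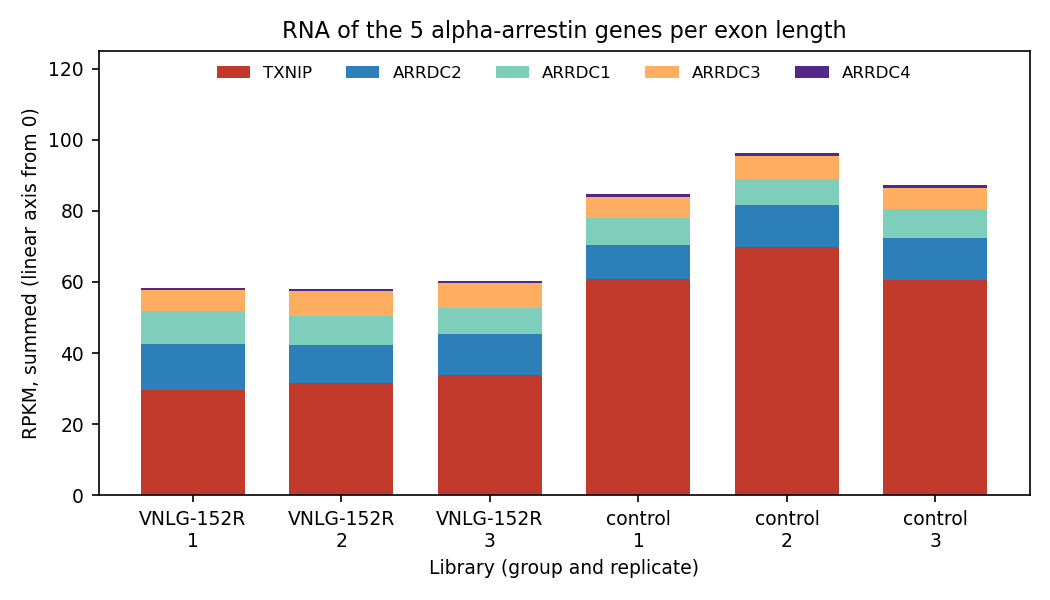
Stacked RPKM of the 5 alpha-arrestin genes in each library, VNLG-152R on the left, on a linear axis from 0. The TXNIP segment is 29.6 to 33.8 RPKM high in treated and 60.4 to 69.8 RPKM high in control libraries, while the rest of each bar is 24.1 to 28.6 RPKM high in all 6.

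The patterns nearest to TXNIP were sought over the 6 libraries among 12910 other named genes that averaged 1 CPM or more. The measure was the smallest root mean square difference of the log2 of CPM plus 0.5, with each gene centered on its control mean. The nearest were C9orf152 (0.133), HAS2 (0.136), which makes hyaluronan, the long noncoding RNA LINC03033 (0.140), the activin subunit INHBB (0.156) and the protein disulfide isomerase AGR2 (0.166). ARRDC4 came 9th of the 12910, at 0.191, while TXNIP came 23rd among the patterns nearest to ARRDC4. For ARRDC4, the nearest were the vasoconstrictor endothelin gene EDN1 (0.0732), HAS2 (0.0927) and the chemokine CXCL1 (0.111). HAS2 had 17.0, 19.5 and 20.4 CPM in treated against 39.2, 35.0 and 32.8 CPM in control libraries. The measure includes the difference between the groups, which all libraries of a group share. The added 0.5 CPM shrinks differences most in genes at a few CPM, such as C9orf152, INHBB, EDN1 and ARRDC4. The log2 fold changes of C9orf152 and INHBB were both -1.28, against -1.01 for TXNIP. Distances and ranks of such genes thus depend on the added value, and ranks without it were not tested.

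The nearest tested genes on each side of TXNIP on chromosome 1 differed less between the groups. POLR3GL, a subunit gene of RNA polymerase III, lies from 145964702 to 145978848 and had 9.27, 10.6 and 10.3 CPM in treated and 11.5, 10.2 and 9.79 CPM in control samples (log2 fold change -0.06, edgeR adjusted p = 0.776). On the other side, LINC01719 (146052566 to 146061948) had 35, 40 and 63 counts in treated and 28, 28 and 30 counts in control libraries. As CPM these were 0.517, 0.523 and 0.761 in treated and 0.460, 0.465 and 0.440 in control libraries, without overlap (log2 fold change 0.41, edgeR adjusted p = 0.373).

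MLXIPL, which encodes ChREBP, the paralog of MondoA that also pairs with MLX, rose with VNLG-152R. It had 14.0, 16.0 and 12.3 CPM in treated libraries against 6.31, 5.78 and 7.21 CPM in vehicle controls. Every treated library was above every control library. The log2 fold change was 1.13 (standard error 0.12, edgeR adjusted p = 0.000198), and no annotated gene shares its exons. Per exon length, MLXIPL RNA was at 2.93 ± 0.377 RPKM in treated and 1.34 ± 0.150 RPKM in control samples (SD, n = 3 each). It was called in each of the 16 alternative analyses, with log2 fold changes of 1.03 to 1.22. Of 9 genes in the list of MLX and MAX partners, 1 was called higher and 0 lower, with a median of 0.05. With DESeq2, and with no filter on low counts, 2 were called. Beside this count and those of the lists below stands the 5.19% called over all tested genes. Nothing is read from the list counts, since the lists were chosen with earlier results of these data known.

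Glucose enters through transporters of the SLC2A family and is phosphorylated by hexokinases before MondoA can sense it. Of 11 tested genes of these steps, 2 were called higher and 0 lower, with a median of 0.04. SLC2A12, a transporter gene, had 8.24, 8.89 and 8.80 CPM in treated libraries against 2.42, 3.77 and 3.29 CPM in controls, without overlap. Its log2 fold change was 1.45 (standard error 0.15, edgeR adjusted p = 0.000123). The antisense gene TBPL1 covers 38.9% of the SLC2A12 exons and had 10.1 CPM in treated and 10.5 CPM in control samples (log2 fold change -0.06). SLC2A3, the gene of the high-affinity transporter GLUT3, had 45.9, 44.6 and 44.6 CPM in treated and 31.9, 37.0 and 33.3 CPM in control libraries (log2 fold change 0.40, edgeR adjusted p = 0.0202). The SLC2A3 call was lost in 5 of 16 alternatives (adjusted p up to 0.118). These were the fits without treated replicate 3, control replicate 1 or control replicate 3, and those with a replicate block, with or without a transcript length correction. Its near copy SLC2A14, with 8 to 24 counts per library, may share its reads. SLC2A1, the gene of GLUT1, which TXNIP removes from the cell surface, is named here after its values were seen. It had 543 ± 88.6 CPM in treated and 515 ± 28.8 CPM in control samples (SD, n = 3 each; log2 fold change 0.08, edgeR adjusted p = 0.729).

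Other genes known to respond to glucose held fewer measured members. Of 9 listed, 5 were tested, of which 0 were called higher and 1 lower, with a median of -0.12. With DESeq2, 2 were called. KLF10, a zinc-finger repressor, had 59.4, 54.5 and 67.1 CPM in treated against 78.0, 79.5 and 77.5 CPM in control libraries, without overlap. Its log2 fold change was -0.38 (standard error 0.09, edgeR adjusted p = 0.0351). This call held in 8 of 16 alternatives. Of the fits that omit a single library, it passed only in the fit that omits treated replicate 3 (adjusted p up to 0.126 in the others), and it missed the threshold after a correction for transcript length (0.0513). PKLR, G6PC1, GPD1 and FGF21, genes of liver glucose and lipid metabolism, were under the filter.

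In the thioredoxin system, 1 of 14 genes was called higher and 0 lower, with a median of -0.12. TXNRD1, the reductase that regenerates thioredoxin, had 1089, 1119 and 1160 CPM in treated and 794, 880 and 847 CPM in control libraries. The groups did not overlap, and the log2 fold change was 0.42 (standard error 0.09, edgeR adjusted p = 0.0166). This call was lost in 5 of 16 alternatives (adjusted p up to 0.107). These were the fits without treated replicate 3, control replicate 1 or control replicate 3, and those with a replicate block, with or without the transcript length correction. The rest of the list, including the peroxiredoxins, did not pass in the main fit. With DESeq2, with no filter on low counts and without treated replicate 2, 2 genes of the list were called. The groups did not overlap in 1 gene that was higher and 3 that were lower in treated cells, against 28.5% of all tested genes.

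Of 9 NEDD4 family ligases, which dock on alpha-arrestins, 1 was called higher and 0 lower, with a median of 0.16. The groups did not overlap in 4 of the 9, all higher in treated cells, against 28.5% of all tested genes. NEDD4L had 183, 164 and 177 CPM in treated and 136, 147 and 141 CPM in control libraries (log2 fold change 0.31, edgeR adjusted p = 0.0484). After a correction for transcript length its log2 fold change was 0.12 (adjusted p = 0.398), and with a single library omitted it passed only in the fit that omits treated replicate 2 (adjusted p up to 0.186 in the others). Longer genes had higher log2 fold changes in these data (Spearman's rho 0.21 over 16731 genes, which are not independent replicates). No gene passed in the lists of regulators of TXNIP (12 tested, median -0.07), of partners and cargo of alpha-arrestins (11 tested, median 0.01), or of other arrestin-fold genes (6 tested, median 0.04). With DESeq2, 1 regulator was called, and 1 gene of the partners and cargo was called in 5 of the 16 alternatives. The groups did not overlap in 3 of 12 regulators, all higher in treated cells, and in 6 of 11 partners and cargo, 3 higher and 3 lower, against 28.5% of all tested genes. The 3 regulators, named after their values were seen, were the forkhead factor genes FOXO1, FOXO3 and FOXO4, with log2 fold changes of 0.25, 0.26 and 0.40 (edgeR adjusted p = 0.174, 0.0824 and 0.107). In the more abundant genes that follow, the groups overlapped. HDAC1, a histone deacetylase gene, had 303 ± 15.2 CPM in treated and 325 ± 24.9 CPM in control samples (SD, n = 3 each; log2 fold change -0.10, edgeR adjusted p = 0.518). ITGB4, the integrin beta4 gene and so a cargo of ARRDC3, had 453 ± 92.9 CPM in treated and 478 ± 66.3 CPM in control samples (SD, n = 3 each; log2 fold change -0.08, edgeR adjusted p = 0.780). ARRB1, the gene of beta-arrestin 1, had 89.5 ± 3.48 CPM in treated and 90.8 ± 8.01 CPM in control samples (SD, n = 3 each; log2 fold change -0.02, edgeR adjusted p = 0.914).

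**Figure D5:**
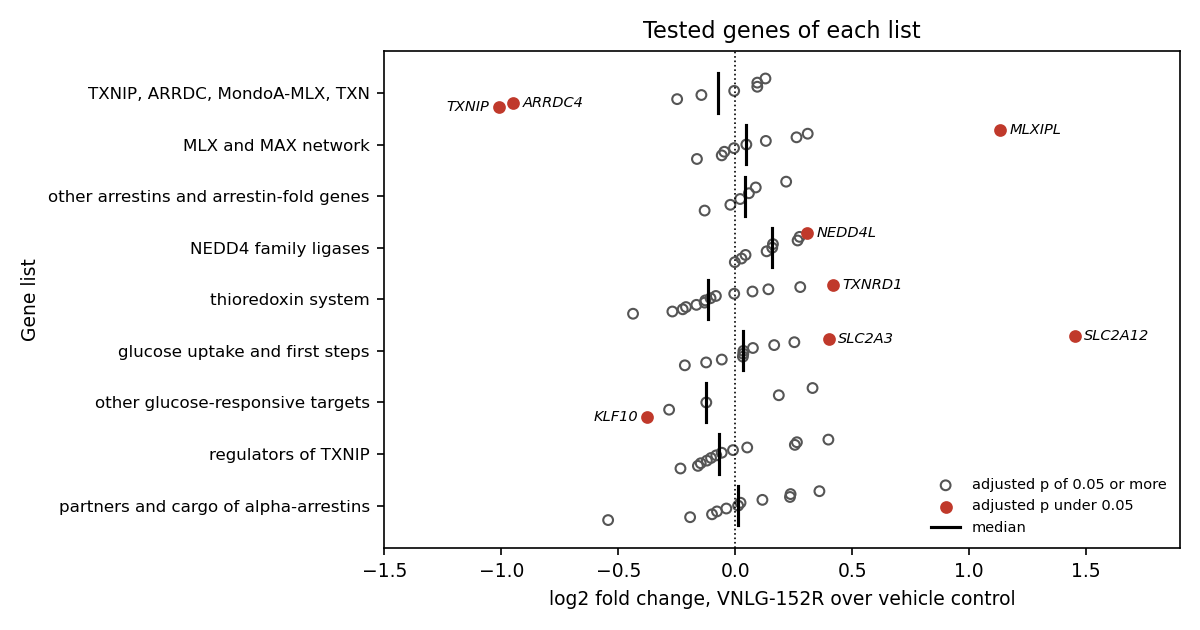
Log2 fold change of VNLG-152R over vehicle control for each tested gene of the 8 and of the pathway lists, with called genes in red and the median of each list as a black line. MLXIPL (1.13) and SLC2A12 (1.45) lie highest, and TXNIP (-1.01) and ARRDC4 (-0.95) lowest.

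The libraries held 69923839 to 82151816 counts assigned to genes in the VNLG-152R group and 60122936 to 68583224 in vehicle controls, so depth moved with treatment. With every library thinned to the shallowest, the log2 fold change was -1.01 for TXNIP and -0.91 for ARRDC4. Reads outside annotated genes were 3.36% to 5.05% of the total in treated and 2.63% to 3.17% in control libraries, and their part in the results was not tested. The line's defining markers VIM, CD44, EGFR, KRT18, CAV1 and AXL were all present. They summed to 5803 to 7384 CPM in treated and 8014 to 8322 CPM in control libraries. Most of this was VIM, with a mean of 3867 CPM in treated and 5079 CPM in control samples. VIM and CAV1 were called lower. KRT18 was lower and EGFR higher without overlap (log2 fold changes -0.37 and 0.30), neither of them called. In CD44 and AXL the groups overlapped. The CAV1 call was kept in 16 of 16 alternatives, while that of VIM (edgeR adjusted p = 0.0472) was lost in 8 of 16, and with a single library omitted it passed only without treated replicate 1 (adjusted p up to 0.174 in the others). Of the 6 markers listed as low or absent in this line, ESR1, PGR and CDH1 were each under 1 CPM in both groups. FOXA1 was at 1.46 CPM in treated and 1.43 CPM in control samples, and GATA3 at 4.61 and 5.41 CPM. ERBB2 was at 98.5 CPM in treated and 90.3 CPM in control samples. Markers of leukocytes, endothelium and stroma summed to 28.5 to 31.2 CPM in treated and 25.4 to 29.9 CPM in control libraries, most of it PECAM1, with PTPRC, CD68 and CDH5 near 0. Whether the marker differences have a part in the TXNIP and ARRDC4 values was not tested. In bulk RNA, fewer cells that carry a transcript and less transcript per cell cannot be told apart.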

How the data were processed

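PolyA-enriched, strand-specific libraries of the 6 samples were sequenced as paired reads. The authors deposited raw counts per gene for each sample, and their processing notes name HISAT, HTSeq, DESeq and GRCh38. For tool versions, annotation release and strand setting, the value is not given in the sources used here. Summary lines for unassigned reads were left out of library sizes (no feature 2.63% to 5.05%). The counts were fitted with edgeR 4.0.16 (R 4.3.3) by quasi-likelihood F tests after TMM normalization and filterByExpr, with Benjamini-Hochberg adjustment over all 17084 tested genes, and the fit was tested on simulated data. Exon lengths and positions came from GENCODE release 29, and promoters from RefSeq. Alternatives used other normalizations and filters, DESeq2 1.42.0, limma 3.58.1 (voom), a replicate block, a transcript length correction, thinned counts and leaving out each library. With 3 against 3 libraries an exact permutation test cannot go below 0.10. The members, gene lists and motifs were chosen with earlier results of these data known. The rule for named genes took the 8 members, the called genes of each list (at most 4 in each direction) and up to 2 abundant genes of lists with none. It also took the 5 and 3 nearest patterns, the nearest tested neighbors of TXNIP and overlapping genes. Outside this rule, SLC2A1, FOXO1, FOXO3 and FOXO4 were named after their values were seen, and SLC2A14 as a near copy of SLC2A3. ARRB1 came after RGP1 in abundance in its list.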

Additional observations from a re-analysis of the deposited data

How the results depend on the processing

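TXNIP and ARRDC4 were called lower, and none of the other 6 genes was called, in all 16 alternative analyses. Leaving out 1 library at a time gave log2 fold changes of -1.06 to -0.94 for TXNIP and -1.02 to -0.86 for ARRDC4, and the other alternatives gave -1.01 to -0.97 and -0.95 to -0.91. The sign of MLXIP turned with a filter of a mean of at least 1 CPM (0.0037), with thinned counts (0.011) and without VNLG-152R replicate 2 (0.037; range -0.044 to 0.037 over the left-out libraries), and its largest difference came with the transcript length correction (-0.16, also with the block added). That of ARRDC2 turned without vehicle control replicate 1 (-0.00065; range -0.00065 to 0.15). Over all genes, 887 were called, against 1539 with no filter on low counts, 1490 with DESeq2 and 264 to 948 with 1 library left out. Of the 79 pathway genes tested in the main fit, 6 were called, against 11 with DESeq2 and 2 to 6 with 1 library left out. Over all tested genes the main fit called 5.19%, and nothing is read from the pathway count. The cause was not tested.

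Samples with the same replicate number did not deviate together (correlations -0.35, -0.23 and -0.22 over 12923 genes), and no sample correlated best with its own number. With the replicate number as a replicate block, 397 genes and 2 pathway genes were called, and with the transcript length correction added, 261 and 2. The TXNIP log2 fold change with the block was -1.01. ARRDC4, with 128 to 258 counts per library, had the widest interval of the 8 genes.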
